A study of Homo sapiens with 4 samples.

Results

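The genes described here encode the partners and antagonists of the transcription factor MYC: MAX, MXD1, MXD3, MXD4, MXI1, MNT, MGA, MLX and MLXIP. They were taken as a list of symbols, 9 of the 20033 protein-coding genes of the gene table, and all 9 were found. Every H3K27ac peak that overlapped the annotated span of a gene extended by 50 kb on each side was assigned to it. After peaks of both libraries that overlapped by at least 1 bp had been merged, this gave 100 regions of the 67554 in the series. Each region was called at an own end (within 1 kb of either end of the gene), at the end of another gene, or distal (over 1 kb from the end of any annotated gene). Peak calls are all that is compared, so each gene is described by where its marked regions lie and how many base pairs they cover, not by its transcript level.

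MAX is the obligate partner through which MYC binds DNA. Both carry a basic helix-loop-helix-zipper domain and bind the E-box, whose core letters are CACGTG. The MXD proteins (MXD1, MXD3, MXD4 and MXI1) and MNT also pair with MAX at E-boxes but recruit SIN3 and histone deacetylases, so they oppose MYC, and several MXD genes are known for rising as blood cells stop dividing and mature. MGA pairs with MAX inside a Polycomb-type repressor complex. MLX is a MAX-like partner of MXD1, MXD4 and MNT, and of MLXIP (MondoA), which senses glucose metabolites.

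The cells were K562, a human line from chronic myeloid leukaemia in blast crisis. The series concerns enhancers that daunorubicin, an anthracycline, induces in acute myeloid leukaemia and their link to resistance, for which K562 stands as a model of another leukaemia. H3K27ac, acetylation of lysine 27 of histone H3, marks active promoters and enhancers. It was profiled by ChIP-seq in 1 sample given 1 uM daunorubicin, a topoisomerase II poison, for 18 h and in 1 untreated sample, each with an input library made with no antibody. There were no replicates, so no difference has an error or a test. In a bulk culture, a mark in part of the cells and a weaker mark in all of them cannot be told apart. The treated list held 65118 peaks over 57.0 Mb and the untreated list 38626 over 36.0 Mb, the depth of the libraries is unknown, and the part this plays in any longer marking with daunorubicin was not tested. The input lists were short, with 87 peaks for daunorubicin and 92 for untreated cells, and neither had a peak in the windows of the 9 genes. Of genes active in K562, GATA1, TAL1, LMO2, KLF1, NFE2, HBG1, TFRC and EPOR had a peak at an end in both libraries and HBG2 with daunorubicin alone, whereas PAX5, MPO and CD14, markers of other blood cells, had none in either. CD3E, EPCAM, KRT8, COL1A1 and PTPRC, chosen as markers of other cell types, also had an end peak in both libraries, and ALB had one with daunorubicin, so an end peak did not separate cell types fully.

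Since MAX dimers recognise CACGTG, the start windows of the 9 genes were searched for it. The RefSeq promoter table (GRCh38.p14) lists 14 starts for them and gives 300 bases for each, from 250 before the start to 50 after it. CACGTG, which reads the same on both strands, was present at 3 of the 14 starts (21.4%), those of MXD4, MNT and MLX, against 7.26% of 35116 starts in the table. The related letters CACGCG (or CGCGTG on the other strand) were present at 3 of 14 starts, 1 each of MXD3, MXI1 and MGA, against 11.4% of all starts. Windows of the 9 genes were richer in CpG than the table, with a median of 30 CpG against 14. A match describes the letters in this window only. The 3 windows with CACGTG are shown because they carry the motif that the encoded proteins bind. They are written 5' to 3' on the strand of the gene, with CACGTG in capitals.

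MXD4, minus strand, chr4:2262060-2262359: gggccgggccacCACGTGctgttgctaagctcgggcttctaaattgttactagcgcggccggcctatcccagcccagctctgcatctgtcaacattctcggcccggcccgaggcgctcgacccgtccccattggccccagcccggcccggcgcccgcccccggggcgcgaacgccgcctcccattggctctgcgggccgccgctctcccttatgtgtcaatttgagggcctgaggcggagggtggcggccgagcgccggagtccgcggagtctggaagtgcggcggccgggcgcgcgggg

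MNT, minus strand, chr17:2401011-2401310: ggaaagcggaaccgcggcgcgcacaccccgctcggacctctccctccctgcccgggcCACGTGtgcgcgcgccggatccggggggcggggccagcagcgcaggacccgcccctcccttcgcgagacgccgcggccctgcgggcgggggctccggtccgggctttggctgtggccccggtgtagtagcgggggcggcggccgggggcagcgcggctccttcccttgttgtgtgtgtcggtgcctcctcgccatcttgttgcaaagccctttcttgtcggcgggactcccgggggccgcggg

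MLX, plus strand, chr17:42566850-42567149: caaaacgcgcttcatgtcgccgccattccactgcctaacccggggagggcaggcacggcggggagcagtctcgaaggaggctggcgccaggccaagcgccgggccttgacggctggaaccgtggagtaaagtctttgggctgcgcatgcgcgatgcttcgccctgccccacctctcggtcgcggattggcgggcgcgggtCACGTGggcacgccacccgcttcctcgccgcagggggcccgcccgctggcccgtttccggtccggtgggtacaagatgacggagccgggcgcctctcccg

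The motif begins at position -238 from the start in MXD4, -193 in MNT and -50 in MLX. The MLX window was under a peak in both libraries over all 300 bases. In the untreated library the MXD4 and MNT windows were also wholly marked, but with daunorubicin only 116 bases of the MXD4 window and 22 bases of the MNT window were. At MXD4 the treated list had 2 peaks (scores 127 and 256) with a gap of 313 bp between them, from -380 to -66, in place of the single untreated peak of 1805 bp. At MNT it had 2 peaks (scores 49 and 33) with a gap of 794 bp, from -767 to 28, in place of a single peak of 1835 bp. CACGTG lay inside the gap at both genes. Of the 14 start windows, 10 were wholly marked without daunorubicin and these 2 of the 10 were less than wholly marked with it. Among all starts wholly marked without the drug, the share was 14.4%. Of all 35116 starts, 10729 were wholly marked without daunorubicin and 10554 with it, so the total was nearly the same in both lists. Windows without CACGTG that were marked in part also had fewer marked bases with daunorubicin at MXD1 (43 against 63) and at the first (0 against 50) and second (127 against 194) start of MXI1, and more at the first listed start of MAX (201 against 184).

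All 9 genes kept a peak within 1 kb of a start. A peak lay at an own end of each of the 9 genes in both libraries, as it did at 57.6% of all protein-coding genes. Own ends held 14 regions, of which 13 were called in both libraries, 1 only with daunorubicin and none only without it. Counting the ends of other genes too, 32 of 37 gene-end regions were shared (86.5%), beside 76.2% of the 18078 gene-end regions of the series. The own-end regions together covered 16399 bp in the treated and 16511 bp in the untreated list, a ratio of 0.99. Own-end marking gained length at 4 genes and lost it at 5, while 65.7% of coding genes with a marked end gained.

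Marking away from gene ends differed more. Distal regions covered 42551 bp in the treated and 23735 bp in the untreated list, a ratio of 1.79, and the distal marked length was longer in the treated list at 8 genes and shorter at MXD4 alone. Across the genome the same ratio was 2.00 for distal regions and 1.18 for regions at the ends of any gene. Some distal regions of the 9 genes lay at starts inside MXI1 and MGA. When regions at such inner starts were not counted as distal, the distal ratio of the 9 genes was 1.99. With only the ends of protein-coding genes counted as ends it was 1.84. Genome ratios for these settings are not given here. Distal length was longer at 88.6% of coding genes with a distal region, so in distal length the 9 genes lay near the background. Of the 63 distal regions 24 were called in both libraries (38.1%, beside 39.4% of the 49476 distal regions of the series), 29 only with daunorubicin and 10 only without it. Over the series these classes held 19483, 26414 and 3579 distal regions. At least 1 distal region called only with daunorubicin lay near 7 of the 9 genes (67.9% of all coding genes), and 1 called only without it near 5 (25.0%). With equal numbers of highest-scoring peaks the ratio of distal marked length was 1.18, and the order of the unshared distal regions turned, 10 in the treated list alone and 14 in the untreated list alone. Series counts for that setting are not given here, so the turn cannot be read as particular to the 9 genes.

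**Figure D1:**
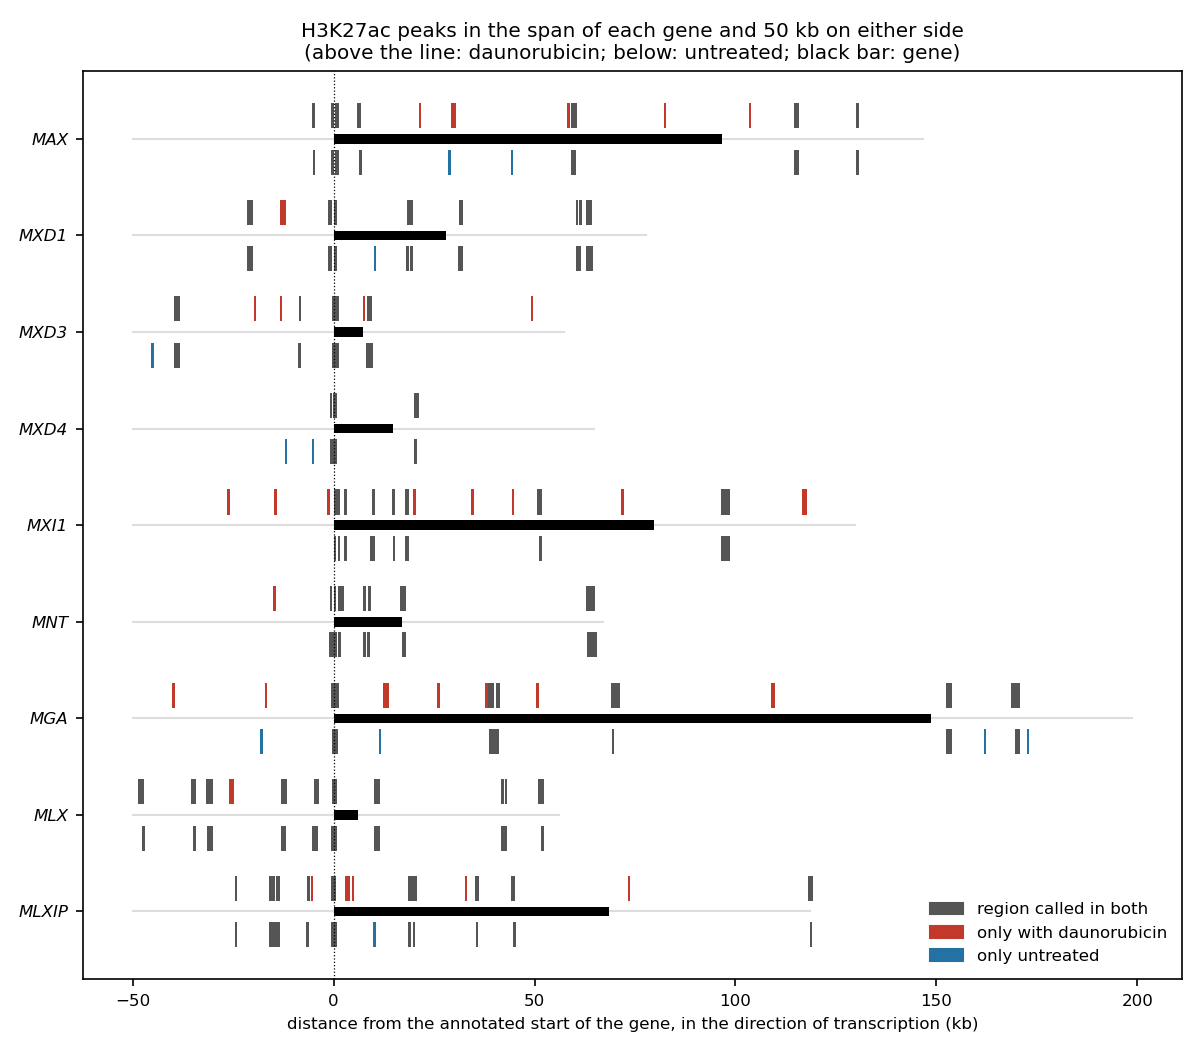
Peaks around each of the 9 genes, aligned at the annotated start (x axis, distance in kb in the direction of transcription), with daunorubicin peaks above each line, untreated peaks below it, the gene as a black bar, and peaks narrower than 0.6 kb drawn at that width. Regions called in both libraries (grey) lie at every start, and most of the 29 distal regions called only with daunorubicin (red) lie around MXI1, MGA, MLXIP and MAX.

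Over the whole windows, the treated list covered more base pairs at 8 of the 9 genes, against 87.4% of the coding genes marked in either library, and fewer at 1, against 12.5%. It reached 1.5 times the untreated length at 4 genes (MXI1, MGA, MAX and MLXIP), against 40.5%. These shares are close to those of all genes. The median difference was 2704 bp, above the 1312.5 bp over coding genes. The median ratio was 1.25, below the 1.34 over coding genes marked in the untreated library. With equal numbers of highest-scoring peaks 5 of the 9 genes were longer, against 65.4% of coding genes in that setting, and 1, MXI1, was past 1.5 times, against 19.3%.

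**Figure D2:**
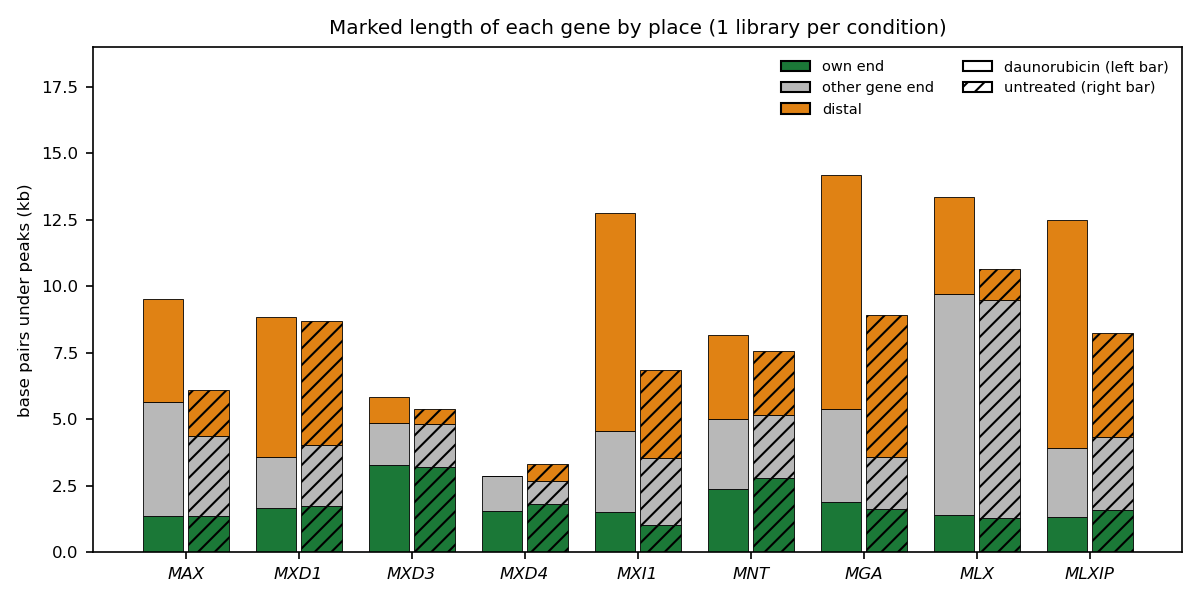
Base pairs under H3K27ac peaks (y axis, kb) in the window of each gene, stacked by place, with daunorubicin on the left and untreated hatched on the right. Own ends (green) are taller with daunorubicin at 4 genes, most at MXI1 (1533 bp against 1031 bp), and shorter at 5, and the distal part (orange) is the taller with daunorubicin at 8 genes, MXD4 being the exception.

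The genes split by length. MXI1, MLXIP, MAX and MGA belong to the longest of 3 equal groups of marked coding genes, and their ratios were 1.86, 1.51, 1.56 and 1.59. In that group the median ratio was 1.55 and 56.4% of genes reached 1.5. The shorter genes MLX (1.25), MXD3 (1.09), MNT (1.08), MXD1 (1.02) and MXD4 (0.86) all stayed under it, and the median ratios of the shortest and the middle group were 1.21 and 1.31. A longer gene has a wider window, which adds distal sequence, but the part this plays in the split was not tested. The 4 long genes gave 18840 bp of the summed difference of 22313 bp.

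**Figure D3:**
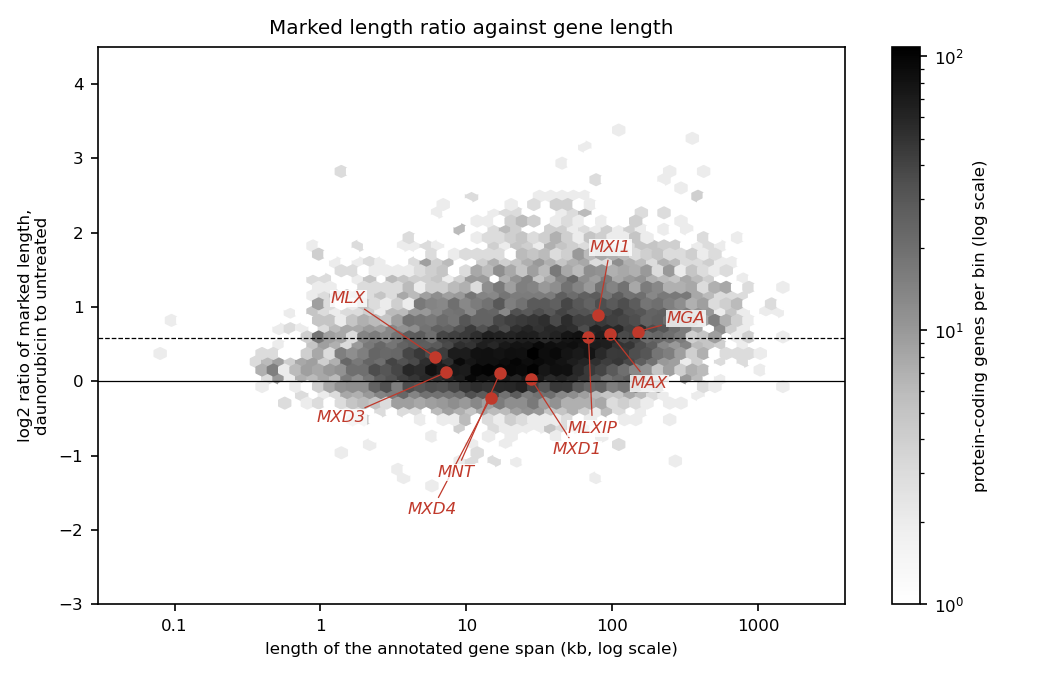
Ratio of marked length, daunorubicin to untreated (y axis, log2), against the length of the annotated gene (x axis, kb, log scale), for the 9 genes in red over all protein-coding genes marked in both libraries (grey, darker where more genes fall). The dashed line is a ratio of 1.5, and the 4 longest of the 9 genes lie above it.

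MAX, the shared partner, lies on chromosome 14 from 65006101 to 65102695 on the minus strand. Its window had 12 peaks and 9535 bp marked with daunorubicin, and 9 peaks and 6120 bp without it. The widest own-end region (65101356 to 65102434) covered both RefSeq starts, with 1079 bp at score 188 under daunorubicin and 986 bp at score 261 untreated. Scores are the authors' own and are read within a list only. A second, weak region lay just upstream (scores 11 and 27), so an unmarked gap of 550 bp with daunorubicin and 485 bp without it lay at the annotated end of the gene span, upstream of the listed starts, which are 412 and 1011 bp inside it. With equal numbers of highest-scoring peaks the difference over the window, 3415 bp, was 421 bp.

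Inside MAX the lists differed. Of the distal regions called in 1 library only, the highest score with daunorubicin was 46 (65020266 to 65020566, 301 bp, in the gene body) and the highest without it 32 (65058017 to 65058634, 618 bp, also in the body). The widest was a region of 1339 bp called only with daunorubicin (65072135 to 65073473, score 30). An untreated peak of 557 bp (score 15) lay 174 bp from it, so the place was marked in both libraries by peaks that missed each other. Of the 2 shared distal regions, the first covered 856 bp against 284 bp in the body and the other 735 bp against 283 bp upstream of the gene.

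MXD1, the first described MAX partner that opposes MYC, lies on chromosome 2 from 69915109 to 69942945 on the plus strand. It had 11 peaks and 8854 bp with daunorubicin, and 9 peaks and 8690 bp without it, which is nearly equal. The difference of 164 bp turned to -971 bp when both lists were limited to scores of at least 43 (the stricter score), to -1685 bp when they were limited to equal numbers of peaks and to -379 bp in windows of 10 kb. The upstream part of its start (69913696 to 69914634) carried the highest own-end score of the 9 genes in each list, 278 with daunorubicin (percentile 98.4 of that list) and 359 untreated (percentile 97.2). The region over the start (69915096 to 69915946) had scores of 135 and 322. The gap between the regions was 481 bp in the treated and 477 bp in the untreated list. The 2 distal regions called only with daunorubicin lay upstream, 11951 bp from the gene (69902370 to 69903158, 789 bp, score 26) and 13038 bp from it (69901817 to 69902071, 255 bp, score 25). A pair of shared distal regions lay downstream, 32421 bp and 35001 bp past the gene, and was shorter with daunorubicin (943 bp against 1130 bp and 1454 bp against 1645 bp). The first had scores of 145 and 32 in the treated list (its highest at percentile 88.8) and 55 in the untreated list (percentile 58.3). The other had 168 (percentile 91.6) and 95 (percentile 70.5).

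MXD3, an MXD member linked to dividing cells, lies on chromosome 5 from 177305499 to 177312752 on the minus strand. The marked length was 5845 bp in 8 treated peaks and 5384 bp in 5 untreated ones, a difference of 461 bp that turned to -274 bp at the stricter score, -799 bp for equal numbers and -257 bp in windows of 10 kb. Its start region (177311503 to 177313190) was the widest at an own end and held 1688 bp at score 172 with daunorubicin and 1601 bp at score 212 without it. At the other end of the gene lay a region that is also at the starts of the neighbours RAB24 and PRELID1 (1340 bp against 1610 bp), and the only own-end region called in 1 library, 277 bp with daunorubicin at score 15 (177305224 to 177305500). An untreated peak lay 570 bp from it. The distal regions called only with daunorubicin had scores of 35 (177263413 to 177263690) and 24 (177325661 to 177326154).

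MXD4 lies on chromosome 4 from 2247432 to 2262109 on the minus strand. It was the least marked of the 9 genes and the only one with a shorter marked length, 2855 bp in 3 peaks with daunorubicin against 3325 bp in 4 peaks without it. Its ratio stood at percentile 4.1 of the coding genes marked in the untreated library. The own-end region (2261188 to 2263064), whose gap at the start is described beside the sequences, covered 1543 bp against 1805 bp. Its only distal regions were upstream and called only without daunorubicin, at 2267227 to 2267575 (349 bp, score 22) and 2274019 to 2274309 (291 bp, score 21). Neither reached the median of its list, and under the stricter score the difference of -470 bp turned to 170 bp. In windows of 100 kb it was 1689 bp.

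MXI1 had the largest gain of the 9 genes. It lies on chromosome 10 from 110207605 to 110287365 on the plus strand, and 12768 bp in 15 peaks were marked with daunorubicin against 6857 bp in 8 peaks without it. The ratio of 1.86 stood at percentile 80.7 of coding genes. The difference of 5911 bp was 4328 bp with equal numbers of peaks and 443 bp under the stricter score. No region at MXI1 was found in the untreated list alone and 8 were found in the treated list alone, all distal. The highest scores among them were 51, 25861 bp upstream of the gene (110181014 to 110181744, 731 bp), and 45 in the gene body (110227378 to 110227960, 583 bp, with an untreated peak 973 bp away). The widest, of 1146 bp at score 40, lay 36930 bp past the gene (110324295 to 110325440).

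The table lists 3 starts for MXI1, which give isoforms with different first exons, and each had a shared region. At the first start a single treated peak of 1533 bp (score 59) stood where the untreated list had 2 peaks (scores 98 and 82) of 1031 bp in all, and the treated peak left the start window itself unmarked (0 of 300 bases, against 50 untreated). The region at the second start, 2626 bp further, covered 784 bp with daunorubicin (score 61) and 937 bp without it (score 123). At the third start, 18391 bp from the first, the lengths were 996 bp (score 41) and 984 bp (score 181). The last pair was of like length, although the untreated peak stood at percentile 83.1 of its list and the treated peak at percentile 50.1 of its own. Ranks from lists of different length show no change by themselves. Both later starts are inside the gene, so their regions count as distal here.

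MNT, the most widely expressed of the MAX-dependent antagonists, lies on chromosome 17 from 2384073 to 2401060 on the minus strand. Its window had 8168 bp in 8 peaks with daunorubicin and 7554 bp in 6 peaks without it. The difference of 614 bp turned to -731 bp at the stricter score and -431 bp for equal numbers. Both ends were marked in both libraries. The start lost length (865 bp against 1835 bp, with the gap described beside its sequence), whereas the region at the other end gained (2382952 to 2384459, 1508 bp against 958 bp). Inside the gene 3 shared distal regions covered 1463 bp against 832 bp, 865 bp against 823 bp and 819 bp against 718 bp. The first of them began 1062 bp from the start, just past the limit of 1 kb, so the size of the loss at the start depends on that limit. No distal region was called in 1 library only. The single unshared region, of 300 bp at score 39 with daunorubicin, lay at the 3' end of the neighbour METTL16.

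MGA, the largest of the 9 genes, lies on chromosome 15 from 41621224 to 41769940 on the plus strand. It had the longest marking with daunorubicin, 14206 bp in 14 peaks, against 8939 bp in 9 peaks, and the difference of 5267 bp was 1928 bp with equal numbers of peaks. The start region (41620549 to 41622444) was the widest at any own end, with 1896 bp at score 207 and 1647 bp at score 290. A second group of RefSeq starts lies about 39 kb into the gene (39181 bp and 39523 bp), and the untreated list had a single peak of 2667 bp over them (score 119), while the treated list had 3 peaks of 2130 bp in all (scores 112, 15 and 69) beside a separate one of 504 bp (score 34).

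Unshared regions were most numerous at MGA, with 7 distal regions in the treated list alone and 4 in the untreated list alone. The highest scores were 38 in the gene body (41730150 to 41731042, 893 bp) and 34 at the inner starts (41658976 to 41659479). The widest distal region called only with daunorubicin near any of the 9 genes, of 1573 bp, also lay in its body (41633401 to 41634973, score 18), 749 bp from an untreated peak of 239 bp. A region over the microRNA gene MIR626 in the MGA body was shared but much wider with daunorubicin, 2051 bp against 368 bp. Downstream of the gene, a shared distal region covered 2165 bp against 1240 bp.

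MLX lies on chromosome 17 from 42567100 to 42573203 on the plus strand, among closely spaced genes. Its marked length was 13360 bp in 11 treated peaks and 10656 bp in 9 untreated ones, the highest share of a window among the 9 genes in both libraries (12.6% and 10.04%). Most of it belonged to the ends of neighbours such as COASY, PSMC3IP and TUBG1, 8294 bp against 8203 bp, so little of the difference came from there. The start of MLX (42566538 to 42567979) covered 1408 bp at score 52 and 1303 bp at score 80. Distal length was 3658 bp against 1150 bp, from a region called only with daunorubicin, 24846 bp upstream (42541133 to 42542254, 1122 bp, score 36), and from 2 shared regions that were wider with the drug (1276 bp against 656 bp and 1260 bp against 494 bp). In windows of 10 kb, which leave those 3 regions out, the difference of 2704 bp at MLX turned to -71 bp.

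MLXIP lies on chromosome 12 from 122078756 to 122147344 on the plus strand, and had 12509 bp in 14 peaks with daunorubicin against 8262 bp in 10 peaks without it. The difference of 4247 bp was 728 bp with equal numbers of peaks. At its start (122078006 to 122079606) the treated peak covered 1314 bp at score 38 and the untreated peak 1601 bp at score 159. The score of 38 lay under the median of the treated list, 41, and under the stricter score of 43. MLXIP was therefore the only gene with no end peak left under the stricter score with daunorubicin. The distal region with its highest treated score, in the gene body 18431 to 20660 bp from the start, covered 2045 bp at score 145 with daunorubicin and 1352 bp in 2 peaks (scores 30 and 52) without it. Among distal regions of the treated list alone, the highest scores lay just inside the gene, at 122083266 to 122083819 (554 bp, score 31) and 122081452 to 122082747 (1296 bp, score 29). A single region, of 639 bp at score 23, was called only without it.

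Across the 9 genes, shared and unshared distal regions both added length with daunorubicin. The 24 shared distal regions covered 26287 bp against 19963 bp, and 13 of them were at least 1.5 times as long with daunorubicin (35.3% of all shared distal regions in the series) while 1 was at least that much shorter. Of 32 shared regions at gene ends 4 were at least 1.5 times as long, against 12.4% of all such regions. Distal regions called only with daunorubicin added 17062 bp, and those called only without it took away 4171 bp.

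The unshared regions were narrow and of low score. Distal regions called only with daunorubicin had a median width of 494 bp (range 208 to 1573 bp) and a median score of 29 (range 15 to 51), and 3 of the 29 reached the median of their list. Those called only without it had a median width of 372 bp (239 to 639 bp) and scores of 15 to 32, and none of the 10 reached the median of its list, 43. Shared distal regions had a median width of 1094.5 bp. An untreated peak lay within 1 kb of 6 of the 29 regions called only with daunorubicin.

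**Figure D4:**
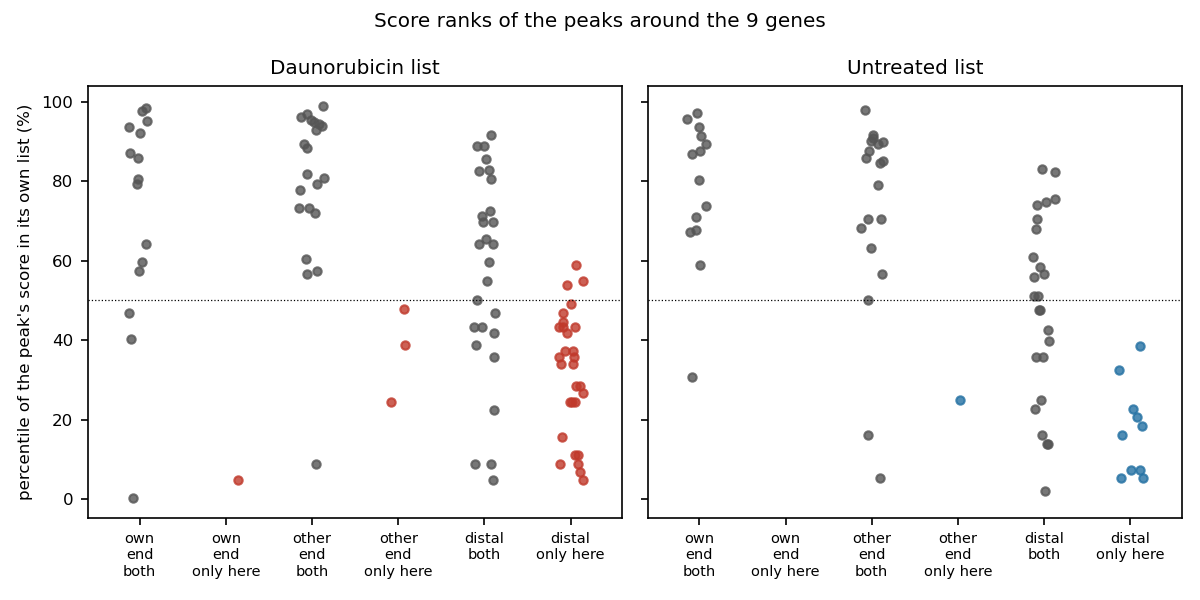
Percentile of each peak's score within its own list (y axis) for peaks around the 9 genes, by place and by whether the region was called in both libraries (grey) or only in that library (red or blue), with points spread sideways for sight. All but 3 of the distal peaks called only with daunorubicin, and all 10 called only without it, lie under the middle of their list (dotted line).

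The wider network was described with 8 lists (72 genes, all matched), for which the same windows were used. Of the 72 genes 63 were longer with daunorubicin, 8 shorter and 1 was unmarked in both libraries, and 26 reached 1.5 times, beside 87.4%, 12.5% and 40.5% of the coding genes marked in either library. In the MYC family (MYC, MYCN, MYCL and the MLXIP paralogue MLXIPL), 3 of 4 were longer. MLXIPL had 13442 bp against 9691 bp, with an end peak only under daunorubicin, MYCL 7551 bp against 3868 bp and MYC 5348 bp against 4585 bp. MYCN had no peak in its window in either library.

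Among the corepressors that MXD and MNT proteins recruit, 9 of 10 were longer and 1 shorter, with a median difference of 1890 bp. HDAC1, a histone deacetylase, had 10876 bp against 5759 bp, the scaffold SIN3A 10454 bp against 7116 bp and NCOR1 12587 bp against 9289 bp. In the complex of MGA 8 of 11 genes were longer and 3 shorter, and the median difference of 237 bp was the lowest of the 8 lists. Within it RYBP, a Polycomb adaptor, had 7928 bp against 3905 bp and RNF2, a ubiquitin ligase for histone H2A, 3218 bp against 1767 bp, next to HDAC1, which is in both lists. Of the MYC coactivators 10 of 11 were longer (median 1900 bp), with BPTF at 14719 bp against 10236 bp, the helicase gene RUVBL1 at 10255 bp against 6242 bp and TRRAP at 4455 bp against 1611 bp.

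All 9 genes for MYC stability and opposing factors were longer (median 2324 bp). FBXW7, the ubiquitin ligase subunit that targets MYC for destruction, had the largest difference of any listed gene, 12356 bp against 4070 bp, PIM1 had 18584 bp against 14858 bp and ZBTB17, which encodes MIZ1, 10619 bp against 6922 bp. All 6 targets of MLXIP and MLX or of glucose were longer, with the highest list median, 3502.5 bp. ARRDC4, an arrestin-like gene, had 6004 bp against 1397 bp, BHLHE40 14158 bp against 10296 bp and the hexokinase gene HK2 5452 bp against 1799 bp. With equal numbers of highest-scoring peaks all 6 were still longer, as were 7 of the 9 stability and opposing genes, 7 of 11 coactivators, 7 of 10 corepressors, 6 of 11 genes of the MGA complex and 2 of 4 of the MYC family, against 65.4% of coding genes.

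Textbook MYC targets were longer at 15 of 16 genes (median 1726.5 bp), with the purine synthesis gene PPAT at 13606 bp against 6176 bp, the cap-binding factor gene EIF4E at 12721 bp against 6343 bp and SHMT2 at 9492 bp against 4806 bp. Other E-box factors of the same protein class were longer at 5 of 8 and shorter at 3 (median 1909 bp), with MITF at 15864 bp against 8331 bp, USF1 at 13577 bp against 9185 bp and TFEB at 10085 bp against 5949 bp. For peak lists of equal size, 14 of the 16 MYC targets and 5 of the 8 other factors were longer, against 65.4% of coding genes.

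**Figure D5:**
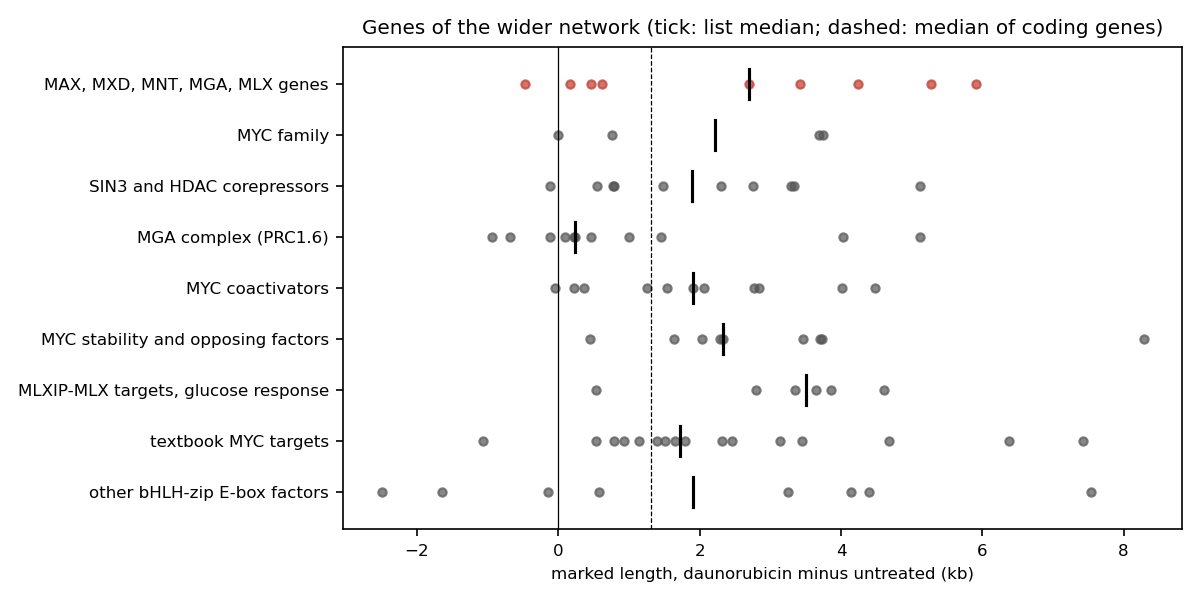
Difference in marked length, daunorubicin minus untreated (x axis, kb), for the 9 genes (red) and for each gene of the 8 lists (grey), with the list median as a tick and the median of coding genes, 1312.5 bp, as a dashed line. The complex of MGA is the only list whose median lies left of the dashed line.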

How the data were processed

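The 4 ChIP-seq libraries were grouped by title into H3K27ac and input, each with and without daunorubicin. The submitters' processing notes list MACS2 2.1.1, Bowtie2 2.3.4.3 and deepTools 3.2.1, and both hg19 and hg38, with no role or setting for any. For each library the authors deposited a separate list of peaks that holds positions and, as its single value, a score; how the score was made was not stated in any source used here. Sequence names were those of hg38, and gene spans, starts and sequences came from RefSeq tables of GRCh38.p14. Exons and introns were not told apart. Some marker genes are not reported here.

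Overlaps and covered lengths were computed in Python 3.11.15 (numpy 2.4.6, pandas 2.3.3) and checked on simulated peaks against bedtools 2.31.1. Coordinates are counted from 1. With 1 library per condition no test was possible. A fold of 1.5 was used for counts. The genes, lists and alternatives were chosen with earlier results of these data known. All 9 genes were named, with the widest shared own-end region and the 2 highest-scoring unshared distal regions of each, and up to 3 genes per list by absolute difference. Other regions named were chosen after their values were seen. There were 8 alternatives listed at the outset and 2 added after seeing the data, as was the split of marked length by place under them.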

Additional observations from a re-analysis of the deposited data

How the results depend on the processing

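With scores of at least 43 in both lists, the regions called only with daunorubicin were 9 (8 distal), those called only without it 4 (3 distal) and the shared distal ones 10. In that setting 1 gene reached 1.5 times (35.3% of coding genes) and 6 of 11 MYC coactivators were longer (78.6% of coding genes). With equal numbers of highest-scoring peaks (38626, a score of at least 33 in the treated list), 5 genes were longer (65.4% of coding genes), 1 reached 1.5 times (19.3%), the distal ratio was 1.18, and 11 regions (10 distal) were called only with and 17 only without daunorubicin. Flanks of 10 kb left 5 of 9 genes longer (79.7% of coding genes), 21 regions (19 distal) only with and 6 (all distal) only without the drug. Flanks of 100 kb gave 55 regions (50 distal) only with it and 40 shared distal ones. With a reciprocal overlap of 50%, 57 (45 distal) were called only with it, 30 (23 distal) only without it and 12 distal ones in both. The region counts of these settings have no series counts beside them, so they cannot be read as particular to the 9 genes.

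The difference turned at MXD1 (-971 bp with scores of at least 43, -1685 bp for lists of equal size, -379 bp at 10 kb), MXD3 (-274, -799 and -257 bp in that order), MNT (-731 and -431 bp in the first pair of these), MLX (-71 bp at 10 kb) and MXD4 (170 bp with scores of at least 43, 1689 bp at 100 kb). MAX, MXI1, MGA and MLXIP kept their direction in these settings. The causes were not tested. The own-end ratio was 0.89 with scores of at least 43, 0.95 for lists of equal size and 1.03 with gene ends within 2.5 kb. The other settings run for it changed the flanks or the ends and starts of other kinds, which cannot alter own-end regions. Leaving out peaks on input peaks moved none of the region counts or differences. As the windows held no input peak, there was nothing to remove, so this is no check on background. No paired analysis was possible because each condition had 1 library. Depth is unknown, so a region called in 1 library only may be under the threshold of the other.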
